A study of Mus musculus with 8 samples.

Results

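Of 12422 probe sets measured in mouse liver, 100 were chosen because they stood highest on the 2 arrays of livers from Atf4+/+ mice treated with AP20187. They named 96 genes of the 8251 on the array, since Arl14ep, Acsl4, Tcea1 and Wwtr1 each had 2 probe sets among them. The members were chosen by measured values. Each value is a linear ratio; the median of a probe set's 8 ratios is 1 for most probe sets. The score of a probe set was the lower log2(ratio + 0.1) of the 2 AP20187 Atf4+/+ arrays minus the highest of the other 6 arrays. The 100 highest scores were taken among 9425 probe sets that named 1 gene and had a median ratio of at least 0.99, less those of genes that the rule names. Those genes (Atf3, Atf4, Ddit3, Trib3, Nupr1, Psat1, Psph, Mthfd2, Asns, Cdkn1a, and all with symbols ending in "ars") accounted for 31 probe sets, of which 13, of 12 genes, would have stood above the 100th score, led by Psat1 at 3.74, Nupr1 at 2.82 and Mthfd2 at 2.34. Mars1, which encodes methionyl-tRNA synthetase, stayed in because its symbol ends in a digit.

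The 4 groups were AP20187-treated Atf4+/+, AP20187-treated Atf4-/-, untreated Atf4+/+ and untreated Atf4-/- livers, with 2 arrays each. All mice, controls included, carried the low expressing Fv2E-PERK transgene #58 under the Ttr promoter, which drives expression in hepatocytes, and were siblings on a mixed FvB/n and Swiss Webster background. The series title calls the controls mock-injected and the sample labels call them untreated; age, sex, dose and time of treatment are not given there. PERK is a kinase of the endoplasmic reticulum membrane that phosphorylates the translation factor eIF2 under stress. In this transgene its kinase domain is joined to a domain that AP20187 brings together, so that the drug alone turns the kinase on. Phosphorylated eIF2 lowers overall translation and raises translation of Atf4, a transcription factor that induces genes of amino acid supply, tRNA charging and stress. Together these steps are called the integrated stress response.

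Atf4 had ratios of 4.17 and 5.75 in treated Atf4+/+ livers and 0.25 and 0.33 in treated Atf4-/- livers, against 2.36 and 0.30 in untreated Atf4+/+ and 0.29 and 1.67 in untreated Atf4-/- livers. In untreated livers the replicate 2 array of each genotype therefore went against its label, and for untreated Atf4-/- replicate 1 the source name and the description give different genotypes. Some results that rest on untreated arrays are also given without those 2 replicate 2 arrays. Most counts of members and of role groups are given with all arrays only. Treated Atf4+/+ replicate 2 stood above replicate 1 in 80 of the 100 probe sets, against 48.3% of the 9425. It was also the array with the lowest 5′ to 3′ signal of the beta-actin control, -0.64 on the log2 scale, with the other 7 between -0.19 and 0.14. For the Gapdh control the signal was -0.06 on this array, close to the other 7, which lay between -0.05 and 0.13. The part of RNA quality in the choice of members was not tested.

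In treated Atf4+/+ livers all 100 probe sets lay above a ratio of 1, from 1.35 upwards. Their median ratio was 1.74 and 2.22 on the treated Atf4+/+ arrays and 1.04 and 1.05 on the treated Atf4-/- arrays, against 0.91 and 0.79 on the untreated Atf4+/+ and 0.83 and 0.79 on the untreated Atf4-/- arrays. The treated Atf4-/- arrays thus lay between the treated Atf4+/+ arrays and all 4 untreated ones. Whether the genes were raised only in treated wild type is therefore described by counts below: for 63 both treated Atf4-/- arrays lay above both untreated Atf4-/- arrays (20.1% of all probe sets), and 0 passed the adjusted test in Atf4-/- livers. Scores ran from 1.20 for Sstr2 to 0.36 for Ftsj3, 2 of them above 1 and 51 above 0.5. The end of the list was not a step. The last inside were Cdkn1b at 0.361, Cebpg, Ets2 and Jun at 0.36 and Ftsj3 at 0.359, and the next outside were 1700017B05Rik at 0.358, Ubp1 at 0.357, D1Pas1 at 0.355, Tra2b at 0.351 and Lonp1 at 0.348.

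**Figure D1:**
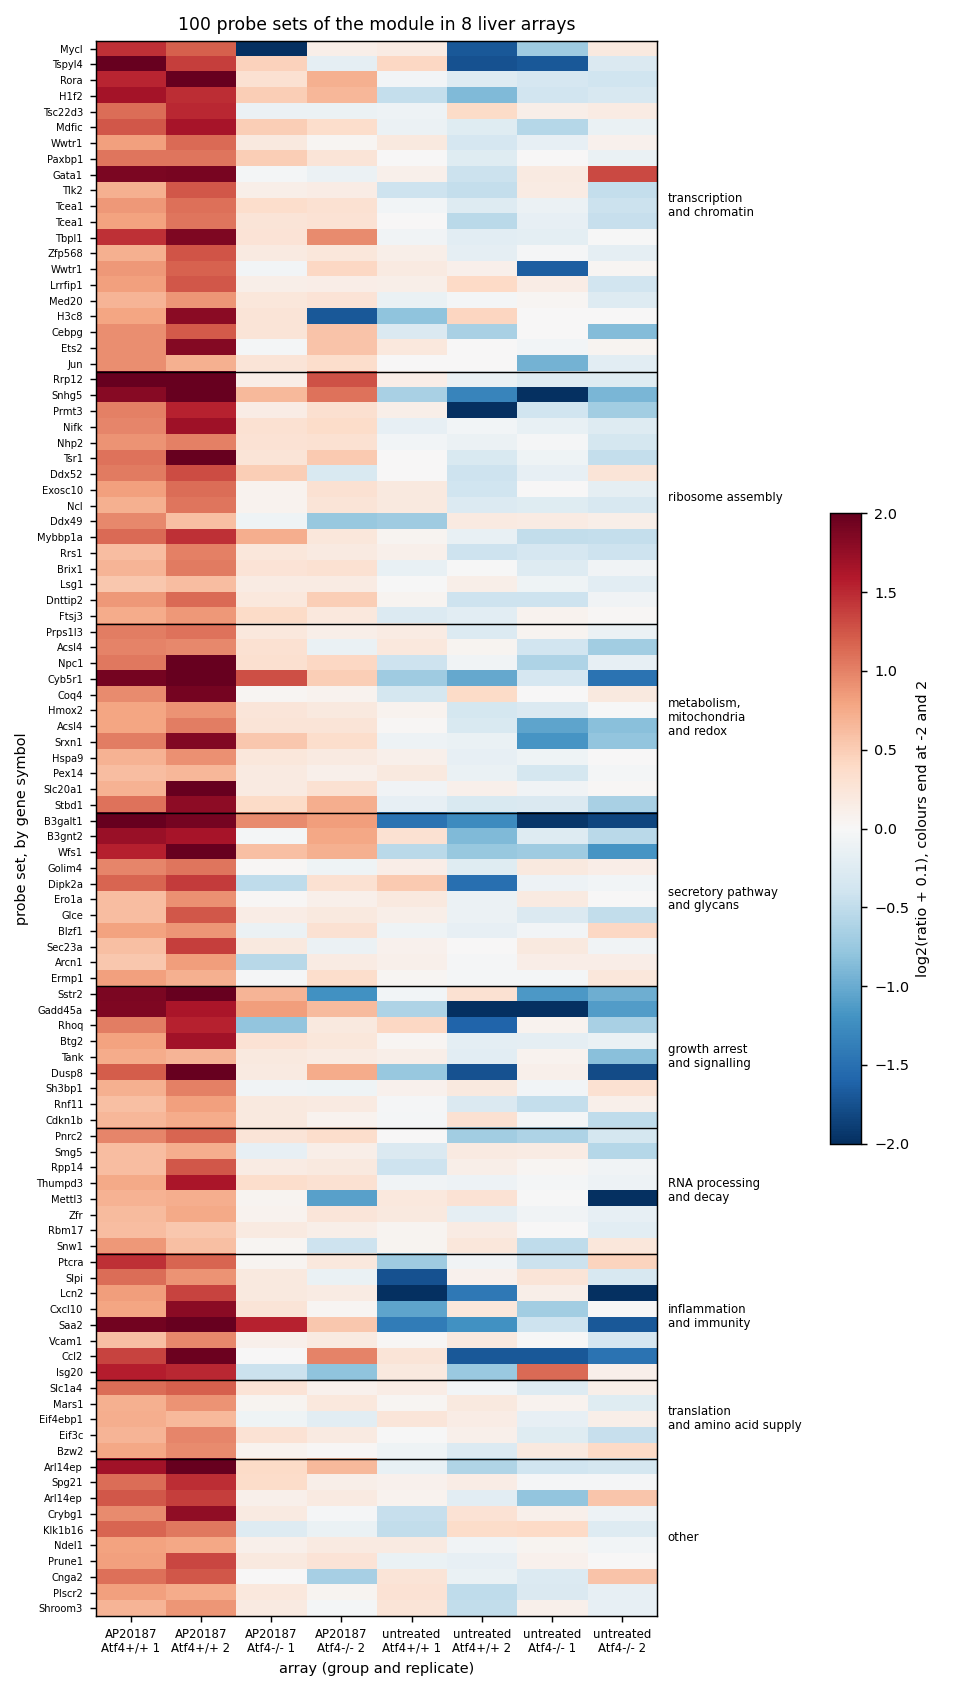
Log2(ratio + 0.1) of the 100 probe sets (down the page, by role) in the 8 arrays (across). Red is positive and blue negative on this scale, so ratios slightly below the median of 1 are also red. The 2 treated Atf4+/+ columns are red throughout by choice. The treated Atf4-/- columns, with median ratios of 1.04 and 1.05, are paler. The untreated columns are mostly blue, except that of untreated Atf4+/+ replicate 1, whose median ratio is 0.91.

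Promoters are shown for the 5 of the 20 highest-scoring probe sets whose gene held a motif searched for. TGATGNAA, searched for on both strands, covers the core of the element bound by ATF4 with a C/EBP partner, and TGATGCAA, its commonly cited form, is contained in it. TGACGTCA is the palindromic cyclic AMP response element. Sequences are RefSeq's for build GRCm38.p6, 300 bases around each annotated start, on the gene's strand; capitals mark the motif, which reads on the other strand in Slc1a4. Sstr2 is at chr11:113619077-113619376 (+), Arl14ep at chr2:106972995-106973294 (-), Tspyl4 at chr10:34297171-34297470 (+), Slc1a4 at chr11:20332664-20332963 (-) and Mdfic at chr6:15720411-15720710 (+).
Sstr2: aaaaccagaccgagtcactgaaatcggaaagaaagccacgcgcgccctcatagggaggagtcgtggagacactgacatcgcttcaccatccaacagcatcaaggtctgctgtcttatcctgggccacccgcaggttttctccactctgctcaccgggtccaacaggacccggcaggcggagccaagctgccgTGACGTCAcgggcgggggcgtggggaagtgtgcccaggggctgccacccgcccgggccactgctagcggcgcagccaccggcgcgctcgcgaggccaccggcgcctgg
Arl14ep: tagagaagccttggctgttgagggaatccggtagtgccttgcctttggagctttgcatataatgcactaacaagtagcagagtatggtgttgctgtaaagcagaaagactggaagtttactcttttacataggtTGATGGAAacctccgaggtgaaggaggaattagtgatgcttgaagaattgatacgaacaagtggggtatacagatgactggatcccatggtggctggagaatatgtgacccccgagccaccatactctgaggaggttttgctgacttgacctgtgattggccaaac
Tspyl4: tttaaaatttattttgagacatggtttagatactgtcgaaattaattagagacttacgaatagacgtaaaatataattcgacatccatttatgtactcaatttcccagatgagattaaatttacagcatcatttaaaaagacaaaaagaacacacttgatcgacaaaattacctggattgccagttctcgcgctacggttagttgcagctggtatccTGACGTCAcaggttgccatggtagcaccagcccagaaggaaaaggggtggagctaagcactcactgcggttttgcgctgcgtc
Slc1a4: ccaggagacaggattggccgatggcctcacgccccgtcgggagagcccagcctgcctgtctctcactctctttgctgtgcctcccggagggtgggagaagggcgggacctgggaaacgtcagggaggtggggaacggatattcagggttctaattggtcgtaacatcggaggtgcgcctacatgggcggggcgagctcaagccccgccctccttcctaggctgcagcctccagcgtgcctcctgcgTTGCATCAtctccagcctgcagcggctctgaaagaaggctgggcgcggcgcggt
Mdfic: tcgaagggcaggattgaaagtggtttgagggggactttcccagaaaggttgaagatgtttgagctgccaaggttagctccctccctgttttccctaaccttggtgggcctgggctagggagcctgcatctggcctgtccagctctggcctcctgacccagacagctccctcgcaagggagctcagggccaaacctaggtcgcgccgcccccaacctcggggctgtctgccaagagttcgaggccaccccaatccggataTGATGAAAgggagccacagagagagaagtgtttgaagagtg

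Of the 96 genes, 81 matched a promoter entry by gene identifier. TGATGNAA was found in 5 of them (6.17%: Arl14ep, Lsg1, Mdfic, Prune1 and Slc1a4), against 3.0% of the 6572 genes of the array with an entry and 4.51% of all 27025 genes with one. TGATGCAA was found in 1 (1.24%, Slc1a4), against 0.81% and 1.03%. TGACGTCA was found in 5 (6.17%: Btg2, Ddx49, Dusp8, Sstr2 and Tspyl4), against 3.17% and 2.03%, and Dusp8 held it at 2 places. These shares describe letters in a window of 300 bases and no binding.

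The 20 highest scores spanned membrane receptors, glycan enzymes, nuclear factors and ribosome assembly. Sstr2, a receptor for the hormone somatostatin, had ratios of 3.60 and 8.42 in treated Atf4+/+ livers and 1.51 and 0.33 in treated Atf4-/- livers, against 0.86 and 1.14 in untreated Atf4+/+ and 0.35 and 0.41 in untreated Atf4-/- livers. Its 2 treated Atf4-/- arrays lay apart by more than the untreated arrays did. The gene's 2 other probe sets also had their highest value on treated Atf4+/+ replicate 2, at 4.88 and 2.30, with 1.77 and 1.18 on replicate 1, and scored -0.05 and -0.09.

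Slc1a4, which carries alanine, serine and other neutral amino acids into cells, had 2.07 and 2.20 in treated Atf4+/+ and 1.11 and 0.96 in treated Atf4-/- livers, against an average of 0.94 ± 0.11 (SD, n = 2) in untreated Atf4+/+ and 0.74 and 0.99 in untreated Atf4-/- livers. Here the treated Atf4-/- arrays overlapped the untreated range of both genotypes. Tsc22d3, a glucocorticoid-induced regulator of transcription, had 2.08 and 2.73 in treated Atf4+/+ and 0.82 on both treated Atf4-/- arrays, against 0.83 and 1.20 in untreated Atf4+/+ and 0.98 and 1.02 in untreated Atf4-/- livers. Golim4, a membrane protein of the Golgi, had 1.87 and 1.99 in treated Atf4+/+ and 0.92 and 0.84 in treated Atf4-/- livers, against 1.0 and 0.75 in untreated Atf4+/+ and 1.05 and 1.0 in untreated Atf4-/- livers. For both genes the treated Atf4-/- arrays were below the untreated Atf4-/- arrays.

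B3galt1, a galactosyltransferase that extends glycan chains, had 4.32 and 3.67 in treated Atf4+/+ and 1.83 and 1.68 in treated Atf4-/- livers, against 0.26 and 0.32 in untreated Atf4+/+ and 0.16 and 0.18 in untreated Atf4-/- livers. The treated arrays of each genotype lay above all untreated arrays with a wide gap. In Atf4-/- livers the difference between AP20187 and untreated was 2.78 ± 0.21 (log2, SE, limma), with a p adjusted over all probe sets of 0.0957. Wfs1, the endoplasmic reticulum membrane protein mutated in Wolfram syndrome, had 2.83 and 4.10 in treated Atf4+/+ and 1.41 and 1.53 in treated Atf4-/- livers, against 0.59 and 0.49 in untreated Atf4+/+ and 0.51 and 0.34 in untreated Atf4-/- livers. Gadd45a, a stress-induced growth arrest gene, had 3.56 and 3.01 in treated Atf4+/+ and 1.68 and 1.45 in treated Atf4-/- livers, against 0.55 and 0.09 in untreated Atf4+/+ and 0.14 and 0.36 in untreated Atf4-/- livers. All 3 genes had treated Atf4-/- values between the treated Atf4+/+ and the untreated values, with no overlap.

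**Figure D2:**
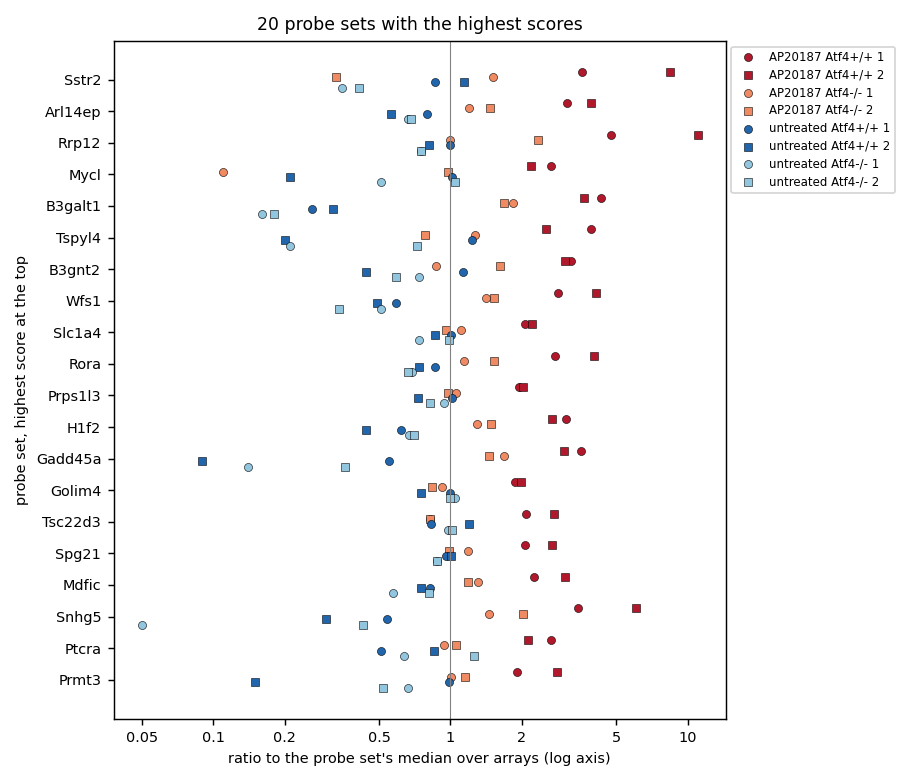
Ratio on each of the 8 arrays (x axis, log) for the 20 probe sets with the highest scores (y axis); colour gives the group and shape the replicate. In 14 of the 20 both treated Atf4-/- arrays lie above both untreated Atf4-/- arrays, in 4 they overlap and in 2, Golim4 and Tsc22d3, they lie below.

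Arl14ep, named for its part as an effector of the small GTPase ARL14 in human cells, was among the few genes with 2 members. Its higher-scoring probe set had 3.11 and 3.91 in treated Atf4+/+ and 1.20 and 1.47 in treated Atf4-/- livers, against 0.80 and 0.56 in untreated Atf4+/+ and 0.66 and 0.68 in untreated Atf4-/- livers. The other had 2.26 and 2.50 in treated Atf4+/+ and 0.97 and 1.03 in treated Atf4-/- livers, against 0.95 and 0.76 in untreated Atf4+/+ and 0.48 and 1.37 in untreated Atf4-/- livers. Only the first of the pair separated the treated from the untreated Atf4-/- arrays. Mycl, a transcription factor of the MYC family, had 2.66 and 2.19 in treated Atf4+/+ and 0.11 and 0.98 in treated Atf4-/- livers, against 1.02 and 0.21 in untreated Atf4+/+ and 0.51 and 1.05 in untreated Atf4-/- livers. Below its treated Atf4+/+ values Mycl varied widely within every other group.

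The effect of AP20187 in Atf4-/- livers was not fixed by the choice of members, because the rule capped the treated and untreated Atf4-/- arrays alike. It was above 0 for 80 of the 100 probe sets, against 48.1% of all 12422. The median was 0.36 on the log2 scale, against -0.02 for all probe sets. Both treated Atf4-/- arrays lay above both untreated Atf4-/- arrays for 63 members (20.1% of all probe sets) and below them for 7 (22.3% of all); for 30 they overlapped. For 46 members both treated Atf4-/- arrays lay above all 4 untreated arrays (9.07% of all probe sets). In limma 22 members had an unadjusted p under 0.05 and were higher with AP20187 (4.27% of all probe sets), and 1, Isg20, was lower (3.16% of all). The 22 became 14 without treated Atf4-/- replicate 1, 12 without replicate 2 and 15 without the 2 untreated arrays that went against their labels. After adjustment 0 of 12422 probe sets passed in Atf4-/- livers (0.0%), with 922 at an unadjusted p under 0.05. Of the 6 arrays outside the chosen pair, a treated Atf4-/- array was the highest for 68 members, against 30.2% of the 9425 probe sets. Without the 2 untreated arrays that went against their labels the median was 0.33, and 78 members were above 0.

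Without AP20187 the members' values in Atf4-/- livers lay on both sides of those in Atf4+/+ livers. The difference was above 0 for 40 and below 0 for 60 probe sets, with a median of -0.05 against -0.01 for all probe sets. Both untreated Atf4-/- arrays were above both untreated Atf4+/+ arrays for 7 members (15.5% of all probe sets) and below for 18 (16.4% of all). By unadjusted p under 0.05, 0 members were higher (2.76% of all) and 4 lower (2.56% of all). The spread behind these p-values too was pooled over the arrays that the rule used. After adjustment 0 of 12422 probe sets passed (0.0%), with 661 at an unadjusted p under 0.05. The median was 0.03 without untreated Atf4+/+ replicate 1 and -0.20 without untreated Atf4+/+ replicate 2, so its sign and size rested on these arrays. It was -0.13 without the 2 untreated arrays that went against their labels.

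**Figure D3:**
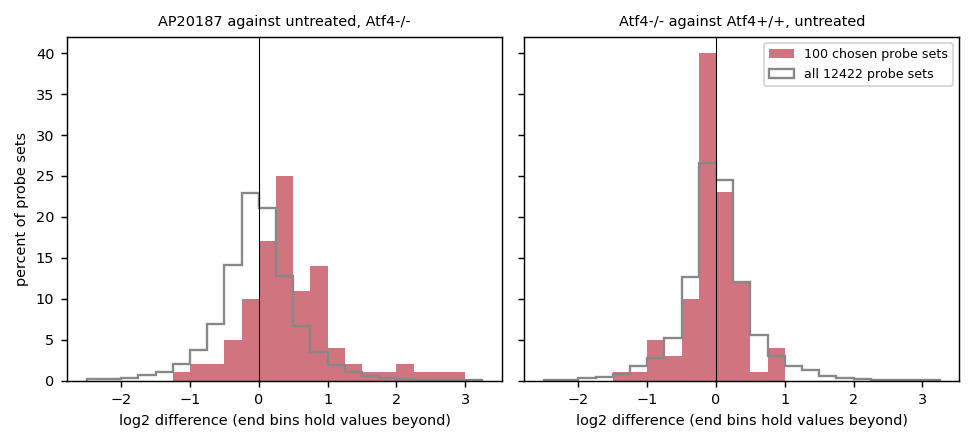
Share of probe sets (y axis, percent) by log2 difference (x axis) for the 100 members (red) and all 12422 probe sets (grey line). Left, AP20187 against untreated in Atf4-/- livers, where the members' median is 0.36 and that of all probe sets -0.02; right, Atf4-/- against Atf4+/+ in untreated livers, with medians of -0.05 and -0.01.

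In Atf4+/+ livers the effect of AP20187 was used to choose the members, so its values only describe them. The median difference was 1.18 on the log2 scale, and 89 members had an unadjusted p under 0.05 and were higher (4.78% of all probe sets; 4.31% were lower). After adjustment 1 of 12422 probe sets passed, B3galt1 (0.00805%). Its adjusted p in limma was 0.0279. With limma's trend and robust moderation it was 0.126, and the 1 probe set that passed there was another. The B3galt1 call was also lost when arrays were left out, which leaves 1 array in a group. In the difference between the 2 genotypes' effects and in Atf4-/- against Atf4+/+ with AP20187, 0 probe sets passed (0.0% each), with 678 and 659 at an unadjusted p under 0.05.

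By role, written from the gene names once the members were known, the members fell into 9 groups, described here by their counts. Over all 12422 probe sets, 48.1% had an AP20187 effect above 0 in Atf4-/- livers and 20.1% had both treated Atf4-/- arrays above both untreated ones, beside which the counts of each group stand. Ribosome assembly had 16 probe sets. Rrp12, a factor of pre-ribosome processing and export known from yeast, had ratios of 4.75 and 11.02 in treated Atf4+/+ and 1.0 and 2.33 in treated Atf4-/- livers, against 1.0 and 0.81 in untreated Atf4+/+ and 0.75 on both untreated Atf4-/- arrays. Tsr1, needed for maturation of the small subunit, had 2.03 and 5.07 in treated Atf4+/+ and 1.10 and 1.34 in treated Atf4-/- livers, against 0.90 and 0.71 in untreated Atf4+/+ and 0.84 and 0.62 in untreated Atf4-/- livers. In both genes treated Atf4+/+ replicate 2 was more than 1.5 times replicate 1, and both treated Atf4-/- arrays were above both untreated Atf4-/- arrays.

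Nhp2, a protein of the box H/ACA particles that guide pseudouridylation of rRNA, had 1.76 and 1.92 in treated Atf4+/+ and 1.12 and 1.13 in treated Atf4-/- livers, against 0.86 and 0.82 in untreated Atf4+/+ and 0.88 and 0.68 in untreated Atf4-/- livers. Snhg5, a host transcript of small nucleolar RNAs, had 3.44 and 6.07 in treated Atf4+/+ and 1.46 and 2.02 in treated Atf4-/- livers, against 0.54 and 0.30 in untreated Atf4+/+ and 0.05 and 0.43 in untreated Atf4-/- livers. Both showed the same order of groups: treated Atf4+/+, then treated Atf4-/-, then untreated. Prmt3, which methylates a protein of the small subunit, Nifk, which binds the Ki-67 protein, nucleolin (Ncl), the large-subunit factors Rrs1 and Brix1, the GTPase Lsg1, the exosome nuclease Exosc10 and Ftsj3 belong to the same group. Of the 16, 15 had an AP20187 effect above 0 in Atf4-/- livers (median 0.51), and for 14 both treated Atf4-/- arrays were above both untreated ones. The effect below 0 was that of Ddx49, an RNA helicase, with 1.85 and 1.42 in treated Atf4+/+ and 0.84 and 0.49 in treated Atf4-/- livers, against 0.51 and 1.03 in untreated Atf4+/+ and 1.02 and 0.98 in untreated Atf4-/- livers. Ddx52, another helicase, overlapped, with 1.31 and 0.71 in treated and 0.79 and 1.09 in untreated Atf4-/- livers.

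A wider list of RNA processing and ribosome biogenesis genes was followed across the arrays, of which 26 of 28 genes were measured by 37 probe sets. It held 4 members (Ncl, Mybbp1a, Rrs1 and Nhp2). Mybbp1a's other probe sets had AP20187 effects of -0.72 and -0.22 (log2) in Atf4+/+ livers and scored -1.78 and -1.32. With the 4 members, above 0 by choice, 12 of the 36 that could be scored lay above 0, against 598 of 9425 (6.34%). This score chose the members, and the list was chosen with earlier results of these data known, so the counts only describe the list. Its median ratio was 1.14 and 1.85 on the treated Atf4+/+ arrays and 1.10 and 1.11 on the treated Atf4-/- arrays, against 0.86 and 0.80 on the untreated Atf4+/+ and 0.83 and 0.82 on the untreated Atf4-/- arrays. Treated Atf4+/+ replicate 1 was thus close to the treated Atf4-/- arrays, and replicate 2 was higher.

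In this list the AP20187 effect was above 0 for 31 probe sets in Atf4+/+ livers (median 0.67) and for 33 in Atf4-/- livers (median 0.44). By unadjusted p under 0.05, 16 were higher and 0 lower in Atf4+/+ livers (4.78% and 4.31% of all probe sets), and 7 higher and 0 lower in Atf4-/- livers (4.27% and 3.16% of all); after adjustment over all probe sets 0 passed in either genotype. For 25 of the 37 both treated Atf4-/- arrays lay above both untreated Atf4-/- arrays (20.1% of all probe sets). The 4 members, chosen by their values in treated Atf4+/+ livers, are among the 16. Leaving out the 4 members, the medians over 33 probe sets were 0.56 in Atf4+/+ and 0.40 in Atf4-/- livers. Without treated Atf4+/+ replicate 2 the count of 16 was 9, without untreated Atf4+/+ replicate 2 it was 10, and without both untreated arrays that went against their labels it was 8; 34 and 31 probe sets were then above 0 in Atf4+/+ and Atf4-/- livers. Among those outside the 100, Gnl3 (nucleostemin) had 1.78 and 3.33 in treated Atf4+/+ and 1.51 and 1.31 in treated Atf4-/- livers, against 0.54 and 0.68 in untreated Atf4+/+ and 0.65 and 0.69 in untreated Atf4-/- livers. Nop58, a core protein of box C/D particles, had 1.87 and 4.05 in treated Atf4+/+ and 1.29 and 1.63 in treated Atf4-/- livers, against 0.71 and 0.65 in untreated Atf4+/+ and 0.58 on both untreated Atf4-/- arrays. In both genes each treated array of either genotype was above every untreated array. These 2 were chosen after their values were seen.

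**Figure D4:**
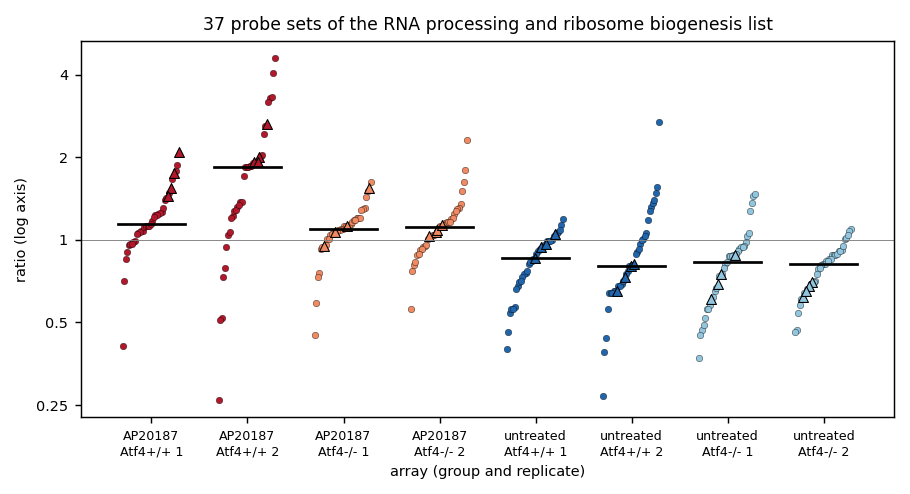
Ratio (y axis, log) of the 37 probe sets of the RNA processing and ribosome biogenesis list on each array (x axis); triangles are the 4 members and bars the medians. The medians are 1.14 and 1.85 on the treated Atf4+/+ arrays, 1.10 and 1.11 on the treated Atf4-/- arrays and 0.80 to 0.86 on the untreated arrays.

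The role group with most members, 21 probe sets of 19 genes, was transcription and chromatin. Of these, 17 had an AP20187 effect above 0 in Atf4-/- livers (median 0.43). Rora, a nuclear receptor of the circadian and lipid programmes, had 2.77 and 4.01 in treated Atf4+/+ and 1.14 and 1.53 in treated Atf4-/- livers, against 0.86 and 0.74 in untreated Atf4+/+ and 0.69 and 0.66 in untreated Atf4-/- livers. H1f2, a linker histone, had 3.07 and 2.67 in treated Atf4+/+ and 1.3 and 1.48 in treated Atf4-/- livers, against 0.62 and 0.44 in untreated Atf4+/+ and 0.67 and 0.70 in untreated Atf4-/- livers. In both, the treated Atf4-/- arrays stood clear of the untreated ones. Rora's other probe set did not show this, with 0.62 and 1.73 in treated Atf4+/+ and 0.91 and 1.65 in treated Atf4-/- livers, against 0.86 and 0.70 in untreated Atf4+/+ and 1.09 on both untreated Atf4-/- arrays. Cebpg, a leucine zipper factor that pairs with ATF4, had 1.80 and 2.23 in treated Atf4+/+ and 1.10 and 1.38 in treated Atf4-/- livers, against 0.72 and 0.54 in untreated Atf4+/+ and 0.90 and 0.45 in untreated Atf4-/- livers. Jun, a subunit of AP-1, had 1.81 and 1.53 in treated Atf4+/+ and 1.09 and 1.17 in treated Atf4-/- livers, against 0.91 on both untreated Atf4+/+ arrays and 0.42 and 0.76 in untreated Atf4-/- livers. Its AP20187 effect in Atf4-/- livers, 0.88 on the log2 scale, was close to that in Atf4+/+ livers, 0.81.

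Gata1, the erythroid transcription factor, had 3.57 and 3.61 in treated Atf4+/+ and 0.87 and 0.82 in treated Atf4-/- livers, against 0.97 and 0.64 in untreated Atf4+/+ and 1.03 and 2.39 in untreated Atf4-/- livers. Besides the treated Atf4+/+ arrays only untreated Atf4-/- replicate 2 was raised. The erythroid marker list, with 3 of 7 genes measured by 4 probe sets, summed to ratios of 4.79 and 4.81 in treated Atf4+/+ and 3.49 and 3.08 in treated Atf4-/- livers, against 4.04 and 2.95 in untreated Atf4+/+ and 3.54 and 4.11 in untreated Atf4-/- livers. The part of blood cells in the Gata1 values was not tested. The gene's other probe set had 1.10 and 0.88 in treated Atf4+/+ and 1.28 and 0.97 in treated Atf4-/- livers, against 0.93 and 1.03 in untreated Atf4+/+ and 1.03 and 0.82 in untreated Atf4-/- livers, and did not show the rise. In bulk liver fewer cells of a type and less RNA per cell cannot be told apart.

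Metabolism, mitochondria and redox had 12 probe sets of 11 genes. All but Coq4, a gene of ubiquinone synthesis, had an AP20187 effect above 0 in Atf4-/- livers, and for the same number, 11, both treated Atf4-/- arrays were above both untreated ones (median 0.49). Srxn1, which repairs oxidised peroxiredoxins, had 1.93 and 3.52 in treated Atf4+/+ and 1.35 and 1.18 in treated Atf4-/- livers, against 0.83 and 0.81 in untreated Atf4+/+ and 0.34 and 0.48 in untreated Atf4-/- livers. Acsl4, which activates long-chain polyunsaturated fatty acids, had at its higher-scoring probe set 1.88 and 1.84 in treated Atf4+/+ and 1.13 and 0.81 in treated Atf4-/- livers, against 1.06 and 0.94 in untreated Atf4+/+ and 0.67 and 0.52 in untreated Atf4-/- livers. At these probe sets of Srxn1 and Acsl4 the untreated Atf4-/- arrays were the lowest of all. Srxn1's other probe set did not show the rise, with 0.86 and 1.02 in treated and 1.06 and 0.98 in untreated Atf4+/+ livers. Npc1, which moves cholesterol out of lysosomes, had 1.97 and 4.06 in treated Atf4+/+ and 1.15 and 1.23 in treated Atf4-/- livers, against 0.65 and 0.85 in untreated Atf4+/+ and 0.55 and 0.79 in untreated Atf4-/- livers. Hspa9, the mitochondrial Hsp70, Hmox2, a haem oxygenase, Pex14 of peroxisome import, Slc20a1, a phosphate transporter, and Stbd1, a glycogen-binding protein, completed the group with Cyb5r1 and Prps1l3.

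The secretory pathway and glycans, with 11 probe sets, showed the smallest AP20187 effect in Atf4-/- livers, a median of -0.02, with 5 above 0. B3galt1 and Wfs1, given above, were the 2 with the highest. Ero1a, an oxidase of disulfide formation, had 1.44 and 1.79 in treated Atf4+/+ and 0.92 and 0.97 in treated Atf4-/- livers, against 1.04 and 0.82 in untreated Atf4+/+ and 1.03 and 0.90 in untreated Atf4-/- livers. Sec23a, a subunit of the COPII coat, had 1.41 and 2.50 in treated Atf4+/+ and 1.04 and 0.82 in treated Atf4-/- livers, against 0.96 and 0.91 in untreated Atf4+/+ and 1.05 and 0.85 in untreated Atf4-/- livers. In both genes the other 6 arrays were mixed in order. B3gnt2 extends poly-N-acetyllactosamine chains, Glce is an epimerase of heparan sulfate and Arcn1 is a subunit of the COPI coat. B3gnt2's other probe set scored 0.02, with 1.14 and 1.12 in treated and 0.92 and 1.10 in untreated Atf4+/+ livers. Of a list of endoplasmic reticulum chaperone and folding genes, with 21 of 22 measured, Ero1a was the only member. That was 1 of 29 probe sets that could be scored, against 100 of 9425 over all genes. In limma 3 of the list's 31 probe sets had an unadjusted p under 0.05 and were higher with AP20187 in each genotype, with 0 lower (4.78% of all probe sets were higher in Atf4+/+ and 4.27% in Atf4-/- livers).

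Translation and amino acid supply had 5 probe sets: Slc1a4, Mars1, Eif4ebp1, Eif3c and Bzw2. Eif4ebp1, which binds and holds back the cap-binding protein eIF4E, had 1.56 and 1.46 in treated Atf4+/+ and 0.84 and 0.76 in treated Atf4-/- livers, against an average of 1.045 ± 0.050 (SD, n = 2) in untreated Atf4+/+ and 0.79 and 0.99 in untreated Atf4-/- livers. Mars1 had 1.53 and 1.77 in treated Atf4+/+ and 0.94 and 1.06 in treated Atf4-/- livers, against 0.93 and 1.05 in untreated Atf4+/+ and 0.95 and 0.75 in untreated Atf4-/- livers. For both genes the treated Atf4-/- arrays overlapped the untreated arrays. The ATF4 and integrated stress response list, 37 of 54 genes measured, had 3 members (Slc1a4, Eif4ebp1 and Cebpg), and 14 of its 44 probe sets that could be scored lay above 0, against 598 of 9425 (6.34%), with the left-out genes included in both. These counts use the score that chose the members and only describe the list. Of the probe sets that could be scored, the list of amino acid transporters had 1 member of 18, Slc1a4. The lists of amino acid and one-carbon metabolism and of protein degradation had 0 of 30 and 0 of 19, against 100 of 9425. Psat1, Mthfd2 and Psph, which the rule leaves out, are not in these counts and scored 3.74, 2.34 and 0.81.

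Growth arrest and signalling had 9 probe sets, 7 of them with an AP20187 effect above 0 in Atf4-/- livers (median 0.42). Btg2, an antiproliferative gene, had 1.65 and 3.11 in treated Atf4+/+ and 1.12 and 1.07 in treated Atf4-/- livers, against 0.93 and 0.77 in untreated Atf4+/+ and 0.78 and 0.81 in untreated Atf4-/- livers. Dusp8, a phosphatase of MAP kinases, had 2.22 and 5.65 in treated Atf4+/+ and 1.03 and 1.57 in treated Atf4-/- livers, against 0.49 and 0.20 in untreated Atf4+/+ and 0.97 and 0.19 in untreated Atf4-/- livers. Both genes had their highest value on treated Atf4+/+ replicate 2. Dusp8's other probe set had 1.29 and 4.32 in treated and 0.71 and 0.41 in untreated Atf4+/+ livers. In Atf4-/- livers it had 0.66 and 1.68 with AP20187 and 1.38 and 0.60 untreated, and it scored -0.36. Cdkn1b encodes the cell cycle inhibitor p27; its other probe set had a row median too low to be scored, and its ratios there were 0.62 and 0.88 in treated Atf4+/+ and 0.79 and 0.62 in treated Atf4-/- livers, against 0.48 and 0.68 in untreated Atf4+/+ and 0.61 and 0.74 in untreated Atf4-/- livers. Of 21 probe sets that could be scored, the list of growth arrest and death genes held 3 members (Gadd45a, Btg2 and Cdkn1b). That of immediate early genes held 1 of 26, Jun, against 100 of 9425 over all genes. These counts only describe the lists.

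Inflammation and immunity had 8 probe sets. Saa2, an acute phase protein of serum, had 3.72 and 5.86 in treated Atf4+/+ and 2.80 and 1.35 in treated Atf4-/- livers, against 0.28 and 0.33 in untreated Atf4+/+ and 0.65 and 0.21 in untreated Atf4-/- livers. Ccl2, a chemokine for monocytes, had 2.46 and 3.79 in treated Atf4+/+ and 0.91 and 1.89 in treated Atf4-/- livers, against 1.09 and 0.21 in untreated Atf4+/+ and 0.21 and 0.26 in untreated Atf4-/- livers. Both genes were higher on the treated than on the untreated arrays of the same genotype. Lcn2, which binds siderophores, had 1.68 and 2.46 in treated Atf4+/+ and 1.05 and 1.02 in treated Atf4-/- livers, against 0.08 and 0.27 in untreated Atf4+/+ and 0.98 and 0.14 in untreated Atf4-/- livers. Lcn2's other probe set did not show this rise and scored -0.34. Its AP20187 effect in Atf4+/+ livers was 0.15 (log2), against 3.05 at the member probe set. The acute phase list held 2 members, Saa2 and Lcn2, of 31 probe sets that could be scored, against 100 of 9425 over all genes. Over its 32 probe sets the AP20187 effect was above 0 for 26 in Atf4+/+ livers (median 0.40, 45.1% of all probe sets). In Atf4-/- livers it was above 0 for 25 (median 0.45, 48.1% of all).

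Isg20, an exonuclease induced by interferon, ran the other way in Atf4-/- livers. It had 2.87 and 2.73 in treated Atf4+/+ and 0.64 and 0.47 in treated Atf4-/- livers, against 1.04 and 0.50 in untreated Atf4+/+ and 2.10 and 0.97 in untreated Atf4-/- livers. Cxcl10, Slpi, Vcam1 and Ptcra, the last a subunit of the pre-T cell receptor, completed the group. Marker lists of 12 cell types (hepatocytes, other cells of the liver, blood cells, muscle, pancreas and fat) held 0 members. The probe sets that could be scored ran from 1 (cholangiocyte) to 20 (B and plasma cell) a list. Members were 100 of 9425, so for lists of this size 0 is near the share over all genes. The neutrophil list, all 8 genes measured, summed to ratios of 8.80 and 10.84 in treated Atf4+/+ and 13.73 and 10.95 in treated Atf4-/- livers, against 10.43 and 12.06 in untreated Atf4+/+ and 16.74 and 18.39 in untreated Atf4-/- livers. The Kupffer cell and macrophage list, 8 of 10 genes, summed to 9.71 and 10.94 in treated Atf4+/+ and 12.77 and 12.44 in treated Atf4-/- livers, against 9.72 and 11.27 in untreated Atf4+/+ and 16.01 and 10.52 in untreated Atf4-/- livers. Neither sum was above the untreated range in treated Atf4+/+ livers. Hepatocyte markers, 9 of 10 genes, summed to 8.35 and 7.58 in treated Atf4+/+ and 9.10 and 9.79 in treated Atf4-/- livers, against 9.34 and 9.28 in untreated Atf4+/+ and 10.25 and 8.96 in untreated Atf4-/- livers; the ratios do not give how bright a marker was, and its lowest was 0.47.

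RNA processing and decay had 8 probe sets, 7 with an AP20187 effect above 0 in Atf4-/- livers (median 0.26). Pnrc2, which takes part in decay of messages marked for nonsense-mediated decay, had 1.87 and 2.14 in treated Atf4+/+ and 1.09 and 1.18 in treated Atf4-/- livers, against 0.91 and 0.52 in untreated Atf4+/+ and 0.55 and 0.68 in untreated Atf4-/- livers. Smg5, of the same decay pathway, had 1.43 and 1.55 in treated Atf4+/+ and 0.79 and 0.98 in treated Atf4-/- livers, against 0.72 and 1.03 in untreated Atf4+/+ and 1.02 and 0.57 in untreated Atf4-/- livers. Of these member probe sets, only that of Pnrc2 separated treated from untreated Atf4-/- arrays. Smg5's other probe sets separated them in opposite directions. The first had 1.25 and 1.14 in treated and 0.69 and 0.43 in untreated Atf4-/- livers, and the other had 0.77 and 0.99 against 3.33 and 2.58. Mettl3, the catalytic subunit of the m6A methyltransferase, and the splicing factors Rbm17 and Snw1 were in the same group. The remaining 10 probe sets, of 9 genes without a common role, had a median effect of 0.16, 8 of them above 0.

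Of the 100 probe sets, 14 had a name ending that marks probes shared with other sequences or chosen under relaxed rules (8 with _f, 5 with _r and 1 with _s), against 19.6% of the 9425. Saa2, H3c8, Klk1b16 and Prps1l3, which have such a name and close paralogs, cannot be told apart with certainty from related transcripts. A further 43 probe sets measured 32 of the member genes, and 37 of them could be scored; 6 scored above 0. In these 43 the AP20187 effect in Atf4+/+ livers was above 0 for 34 (45.1% of all probe sets), with a median of 0.30 on the log2 scale. By unadjusted p under 0.05, 11 were higher and 0 lower (4.78% and 4.31% of all). They come from the same arrays as the choice and are no separate sample.

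The score can be computed for any of the 28 pairs of arrays, 4 of them the labelled groups and 24 taking 1 array from each of 2 groups. The treated Atf4+/+ pair gave the highest count above 0 (579, left-out genes excluded), the highest count above 0.5 (51) and the highest 100th score (0.36). The treated Atf4-/- pair gave 286 above 0, 12 above 0.5 and a 100th score of 0.15; the untreated Atf4+/+ pair gave 426, 16 and 0.19, and the untreated Atf4-/- pair 493, 25 and 0.23. Over the 24 mixed pairs the counts above 0 ran from 145 to 538 with a median of 267, those above 0.5 from 5 to 18, and the 100th score from 0.04 to 0.22. By the very highest scores the treated Atf4+/+ pair did not stand out: 2 of its scores exceeded 1, against 0 to 3 in the mixed pairs, and its first score of 1.20 lay within their range of 0.84 to 1.74. These counts are a description with no test, since the pairs share arrays. The left-out genes, not counted here, held higher scores for the treated Atf4+/+ pair, up to 3.74.

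**Figure D5:**
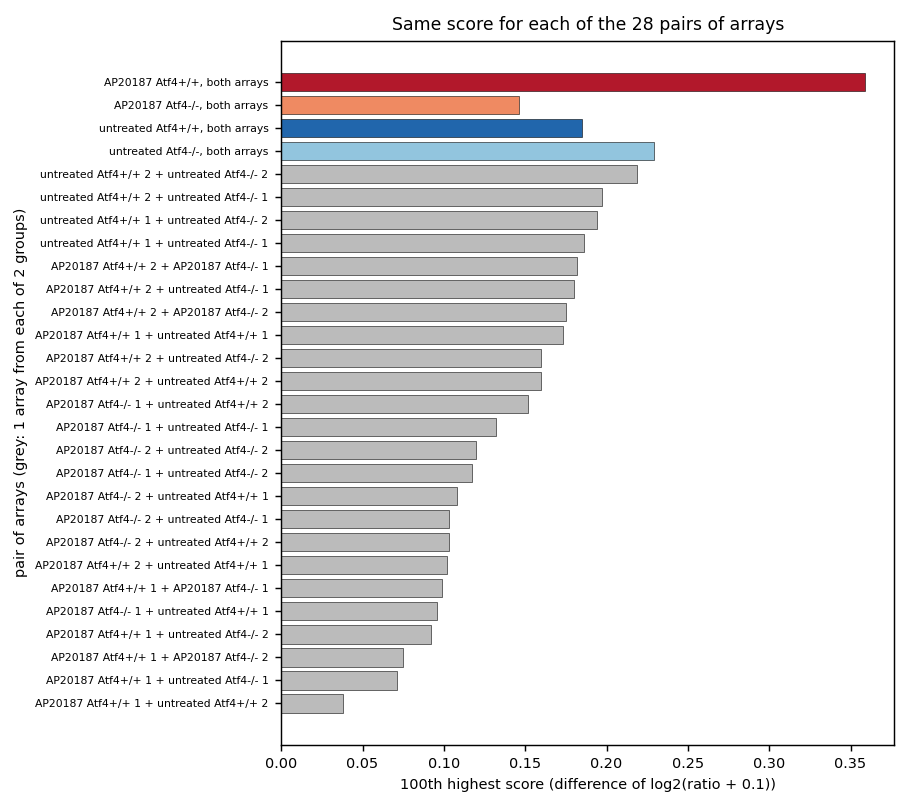
The 100th highest score (x axis, difference of log2(ratio + 0.1)) for each of the 28 pairs of arrays (y axis), left-out genes excluded. The treated Atf4+/+ pair stands at 0.36; the other labelled pairs lie at 0.15, 0.19 and 0.23 and the 24 mixed pairs (grey) between 0.04 and 0.22.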

How the data were processed

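Liver RNA was hybridised to 8 Affymetrix MG-U74Av2 arrays. The deposited table holds linear ratios with 2 decimals whose median over arrays is 1 for most probe sets; the sources used here do not give how the authors summarised and scaled signals. Groups came from source names and descriptions. Replicate numbers follow accession order and pair nothing. The labels do not say whether arrays came from separate mice, so p-values may measure technical spread only. After 66 control probe sets were left out of 12488, 12422 were tested, of which 10833 had 1 gene, 396 several and 1193 none; 10817 were matched by gene identifier, and symbols were updated from RefSeq.

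Values were log2(ratio + 0.1), so folds of low ratios are understated. In limma 3.58.1 (R 4.3.3), 4 group means were fitted to all 8 arrays, with Benjamini-Hochberg adjustment over all tested probe sets (4 residual and 2.37 prior degrees of freedom, median SE 0.32). Tested on simulated data with the same number of probe sets, it called 77.8% of the probe sets given a log2 difference of 3 for AP20187 in Atf4+/+. Over 5 simulations it also called 41 unchanged probe sets. Smaller differences, such as the members' median of 1.18, were not simulated, so how often they would pass is not known. Python 3.11.15, pandas 2.3.3 and matplotlib 3.10.9 were used. Named were genes from the 20 highest scores, the edge of the list, list members, some members with other probe sets, and members as examples of roles. The members and lists were chosen with earlier results of these data known. Alternatives were other pseudocounts, quantile normalization, other filters and scores, array weights, trend and robust moderation and leaving out arrays. Precision is limited by having 2 arrays a group, and the table does not show brightness or detection.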

Additional observations from a re-analysis of the deposited data

Results flagged for a closer look

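For 7 members both treated Atf4+/+ arrays lay above both untreated Atf4+/+ arrays, which the choice of members fixes, while both treated Atf4-/- arrays lay below both untreated Atf4-/- arrays. They were Bzw2, Ddx49, Gata1, Golim4, Isg20, Sh3bp1 and Tsc22d3, and in limma's test of the difference between the genotypes' effects none of the 7 passed, with adjusted p from 0.594 for Gata1 to 0.901 for Ddx49 and Sh3bp1; the rule used the Atf4+/+ arrays in it. Of all probe sets tested, 22.3% had both treated Atf4-/- arrays below both untreated ones.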

How the results depend on the processing

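Of the 100 members, 98 stayed among the 100 highest scores with a pseudocount of 0.01 or 0.5, 83 after quantile normalization, 92 without the filter on the row median, 83 with the score divided by the SD within groups and 81 with 1 probe set per gene. Only 35 stayed when the mean of the pair minus the mean of the other 6 arrays was used. Leaving out 1 array kept 37 to 94, the fewest without treated Atf4+/+ replicate 1 (37) and replicate 2 (49), and gave 641 to 1754 probe sets above 0 (1754 and 1183 without those arrays). Without both untreated arrays that went against their labels, a choice made after seeing the data, 78 stayed and 757 were above 0. No member's score changed sign after quantile normalization. A pseudocount cannot change the sign of a score, which rests only on the order of the ratios.

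The members' median AP20187 effect in Atf4-/- livers was 0.25 with a pseudocount of 0.5, and 0.33 to 0.38 when 1 array was left out; the untreated genotype difference ran from -0.198 to 0.026. Members higher in Atf4-/- livers at an unadjusted p under 0.05 numbered 28 after quantile normalization and 12 to 23 when 1 array was left out (14 without treated Atf4-/- replicate 1 and 12 without replicate 2), and ribosome list probe sets in Atf4+/+ livers, again with 1 array left out, 9 to 20, or 8 without both doubted arrays. In the AP20187 effect in Atf4+/+ livers 2 probe sets passed after quantile normalization and 0 when any 1 array or both doubted arrays were left out, with fewer residual degrees of freedom. B3galt1 had an adjusted p of 0.126 with trend and robust moderation (limma), where 1 other probe set passed. It also lost its call when arrays were left out. In the other 4 comparisons 0 passed under every alternative. No paired analysis was possible because the labels carry no replicate numbers.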
